A study of Mus musculus with 4 samples.

Results

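The 10 genes described here encode surface proteins by which haematopoietic stem cells (HSCs) are sorted or defined, namely *Kit*, *Ly6a*, *Slamf1*, *Cd48*, *Cd34*, *Procr*, *Cd27*, *Cd9*, *Esam* and *Tek*. They were taken by name for their use as markers, and all 10 are among the 23906 gene symbols listed in each file. RNA sequencing was done on LSK-SLAM cells (lineage-negative, Sca1-positive, cKit-positive, CD150-positive and CD48-negative) of *BRE-GFP* transgenic mice on a C57BL/6 background, in which a BMP responsive element drives GFP while a cell is responding to BMP through Smad1/5. There were 4 samples: the GFP+ and the GFP- fraction of this gate in the fetal liver (FL) at E14, and both fractions in adult bone marrow (BM). Where 4 values stand together they are for GFP+ then GFP- cells of the FL, followed by GFP+ then GFP- cells of the BM. All 4 carry the transgene, which embryos inherited from heterozygous fathers, and were sorted by the same surface markers, so that within a tissue the gates of the fractions differ in the reporter. The preparation differed between tissues, in that BM cells went through a Ficoll gradient and an antibody against CD11b was added to their lineage stain. No group had a replicate, and how many embryos or mice went into a sample is not given in the sources used here. For the adults the paper's methods and legends give an age range of transplant donors, not of the mice used for sequencing. The values are FPKM, sequenced fragments scaled to transcript length and to library size, so that levels can be set side by side between genes. The paper's methods state the mapped reads of each library, but the files used here give FPKM without counts, so the number of fragments behind a gene's value is not given here and no counting error is given.

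The markers fall into a few roles. *Kit* encodes the receptor for stem cell factor, a tyrosine kinase on which HSCs and many progenitors depend, *Ly6a* encodes Sca1, a small protein held to the membrane by a lipid anchor, and *Slamf1* encodes CD150, a receptor of the SLAM family. HSCs carry these 3 proteins, whereas CD48, another SLAM family member, is absent from the surface of HSCs and appears as they give rise to progenitors and mature blood cells. EPCR (*Procr*), the receptor for protein C, and Tie2 (*Tek*), the receptor tyrosine kinase for angiopoietins, mark the most immature HSCs and are shared with endothelium, as are the adhesion molecules ESAM (*Esam*) and CD34. CD27, a receptor of the tumour necrosis factor family, and CD9, a tetraspanin abundant on megakaryocytes and platelets, are found on HSCs and on several mature cell types. The sort acts on protein at the cell surface, and the values below are of mRNA.

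The libraries were first compared with their labels. Of 9 genes of fetal cells, 7, 8, 2 and 1 reached an FPKM of 1 in the 4 libraries, so the tissue labels followed the fetal genes. *Igf2bp1*, which encodes an RNA-binding protein of fetal cells, had 426, 58.8, 0 and 0.018, and the imprinted fetal gene *H19* had 44.7, 42.1, 0 and 0.037. No transcript of the reporter is listed, so the GFP labels have no such check. The paper describes *Flt3* as higher in GFP+ cells of the BM and comparable between the FL fractions. *Flt3*, named here for that reason, had an FPKM of 7.29, 30.95, 41.7 and 36.8. It was lower in GFP+ cells of the FL and higher in those of the BM. Unlike in the paper, the FL values were not comparable, and they differed more than the BM values. In the reverse order of libraries the same 4 values would follow the paper's description. That order would set the tissue labels against the fetal genes above. The paper also reports BMP receptor genes in GFP+ cells only, which was not examined here. Whether the GFP labels of a tissue are exchanged was not tested. Every direction between GFP+ and GFP- cells below rests on these labels and would turn if the fractions were exchanged. The summed FPKM of 12 stem cell regulators was 836, 663, 309.5 and 707, lowest in GFP+ cells of the BM. Markers of mature cells that the lineage gate should remove were abundant in the BM libraries. The sum over 10 neutrophil genes was 588, 310.5, 64056 and 17786. This list also holds primary granule genes of myeloid progenitors, so its sum is not of mature cells alone. Among them *Mpo* had 247, 117, 5777 and 4754, and *Elane* 79.9, 11.7, 3991 and 3042. *S100a8* and *S100a9*, whose products form the calprotectin of neutrophils, had 25.3, 9.78, 25286 and 3189, and 2.06, 13.6, 14307 and 1871. Over 7 B cell genes the sums were 96.3, 41.9, 3422 and 891, and over 7 T cell genes 12.9, 15.7, 273 and 90.4. The defining genes *Cd3e*, *Cd3g*, *Ebf1* and *Pax5*, chosen here for their zeros, were listed at 0 in both FL libraries and were all above 3 in both BM libraries. In FL GFP+ and GFP- cells 4 and 3 genes of the B cell list were at 0, and 3 and 3 of the T cell list. Among the others, named for values above 0 in the FL, *Cd79b* had 87.6, 41.1, 1431 and 423, and *Lck* 8.84, 10.3, 32.2 and 21.4. The sums over 10 erythroid genes were 1251, 1113, 25572.5 and 3794. For 8 hepatocyte genes the sum was 419 in FL GFP+ cells and 53.9 to 79.8 in the other 3 libraries. BM GFP+ cells thus had the highest sums for the erythroid, neutrophil, macrophage, B cell, T cell, mast cell and stromal lists and the lowest for the stem cell regulators and the endothelial list. In bulk RNA, fewer cells of a type and less RNA per cell cannot be told apart. The number of genes with an FPKM above 0 ranged from 12372 to 17345 and the share of all FPKM in the 100 highest genes from 28.2% to 40.3%, the latter again in GFP+ cells of the BM.

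**Figure D1:**
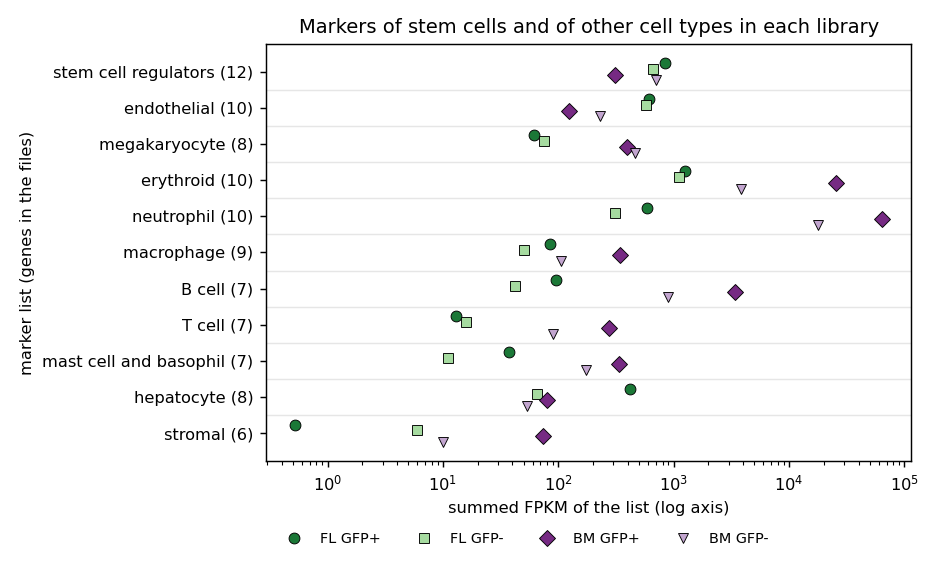
Summed FPKM (log axis) of lists of marker genes for stem cells and for other cell types in each of the 4 libraries, with the number of listed genes found in the files. Each point is 1 library. The BM GFP+ point lies furthest right for the neutrophil (64056), erythroid (25572.5) and B cell (3422) lists and furthest left for the stem cell regulators.

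*Procr* and *Tek*, the 2 members listed at 0 in BM GFP+ cells, and *Cd48*, which was higher in GFP+ cells of both tissues, are shown by the promoter sequence of each, from 250 bases before to 50 bases after the start of transcription. The sequences are RefSeq's for GRCm38.p6, which holds a promoter for 8 of the 10 genes in the table used here (not *Ly6a* and *Esam*). Capitals mark, on either strand, GATAA for the factor family of *Gata2*, TGTGGT for that of *Runx1* and GGAAG for that of *Fli1* and *Erg*, all of which are among the stem cell regulators above. The *Cd48* window lies inside the range given for the gene below, at the start of 1 of its transcripts. Those of *Procr* and *Tek* cross the start of the range given for each gene below. The start of transcription used for these windows lies inside that range.
Procr, chr2:155750967-155751266, plus strand: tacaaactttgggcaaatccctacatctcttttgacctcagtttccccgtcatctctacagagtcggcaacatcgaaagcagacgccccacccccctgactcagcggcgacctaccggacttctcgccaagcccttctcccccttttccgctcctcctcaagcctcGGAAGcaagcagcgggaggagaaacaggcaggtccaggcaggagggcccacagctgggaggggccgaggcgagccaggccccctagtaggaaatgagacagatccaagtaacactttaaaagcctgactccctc
Tek, chr4:94739039-94739338, plus strand: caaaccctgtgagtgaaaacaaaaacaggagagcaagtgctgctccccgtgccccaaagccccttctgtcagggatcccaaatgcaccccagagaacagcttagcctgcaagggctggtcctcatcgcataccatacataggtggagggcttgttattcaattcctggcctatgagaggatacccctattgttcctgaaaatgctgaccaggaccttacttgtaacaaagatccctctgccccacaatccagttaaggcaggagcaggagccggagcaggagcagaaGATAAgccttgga
Cd48, chr1:171681742-171682041, plus strand: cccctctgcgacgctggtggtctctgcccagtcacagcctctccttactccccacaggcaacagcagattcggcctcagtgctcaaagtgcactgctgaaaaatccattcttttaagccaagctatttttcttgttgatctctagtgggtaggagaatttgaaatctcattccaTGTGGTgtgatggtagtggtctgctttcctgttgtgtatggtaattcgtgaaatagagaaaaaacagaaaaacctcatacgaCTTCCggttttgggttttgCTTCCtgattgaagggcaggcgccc
The *Procr* window held 1 GGAAG and neither of the others, that of *Tek* 1 GATAA and neither of the others, and that of *Cd48* 1 TGTGGT and 2 GGAAG. Of 27025 promoters of the same length, 1 per gene, 71.1% held GGAAG, 25.8% GATAA and 16.9% TGTGGT. A further 2 motifs, which read alike on both strands, were counted in the same windows and are not capitalised. CANNTG, the E-box bound by Tal1 with E proteins, occurred 1, 2 and 1 times for *Procr*, *Tek* and *Cd48*, against 72.1% of promoters with at least 1, and GGCGCC, a GC-rich element of BMP-responsive promoters, occurred once for *Cd48* and not for *Procr* or *Tek*, against 12.0%. *Procr* and *Tek* thus shared CANNTG and none of the 3 capitalised motifs. A match is a stretch of letters and not a measured binding site.

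Among the proteins that the sort requires, *Kit* (chr5:75574987-75656722 in GRCm38.p6, RefSeq) had an FPKM of 102, 150.3, 22.2 and 76.6. It was lower in the GFP+ library of both tissues, 1.47-fold in the FL and 3.46-fold in the BM, and lower in the BM than in the FL in both fractions. *Ly6a* (chr15:74994877-74998031) had 19.7, 46.3, 286 and 146. Its 2 BM values lay above its 2 FL values, and the order of the fractions was opposite in the tissues, with GFP+ cells 2.35-fold lower in the FL and 1.97-fold higher in the BM. Ly6 genes are close relatives in 1 cluster, and reads shared among them may be divided between them. *Slamf1* (chr1:171767131-171801184) had the smallest level of the 3, with 6.47, 12.6, 4.74 and 10.7. It was lower in GFP+ cells in both tissues, by 1.94-fold in the FL and 2.26-fold in the BM, and its FL and BM values overlapped.

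*Cd48* (chr1:171681245-171705258), whose protein the sort excludes, had an FPKM of 51.4, 17.4, 267 and 126. The GFP+ library was higher in both tissues, 2.95-fold in the FL and 2.11-fold in the BM, and both BM values lay above both FL values. In each library the *Cd48* level exceeded that of *Slamf1*, with a ratio of FPKM of 7.93, 1.39, 56.3 and 11.8. *Cd48* and 7 genes for antigens of the lineage stain together summed to 113, 68.8, 1645 and 819, and 4, 3, 8 and 8 of them reached an FPKM of 1. The order of libraries was that of *Cd48* itself, which is part of the sum, and *Ly6c2* made up most of both BM sums. *Ly6c2*, a monocyte and granulocyte antigen, had 16.2, 0.635, 1102 and 605, and *Ptprc*, the CD45 gene of which B220 is an isoform, had 32.7, 45.1, 115 and 48.0. *Itgam*, which encodes CD11b, had 13.0, 5.20, 39.0 and 9.11. The part of mature cells in the *Cd48* values was not tested.

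The genes shared with endothelium had their highest levels in the FL. *Procr* (chr2:155751125-155755478) had an FPKM of 106, 113, 0 and 60.8, so that the library in which it is listed at 0 stands against 3 in which it lay at or above percentile 91.4 of all symbols. *Tek* (chr4:94739086-94874976) had 41.5, 43.0, 0 and 5.54, again with 0 in BM GFP+ cells, and with a BM GFP- value 7.76-fold below that of FL GFP- cells. In files without counts a 0 can be a failed estimate as well as a lack of reads, so no fold of FPKM is given against it. Log2 ratios and limma changes that include these zeros are set by the pseudocount: in GFP+ over GFP- cells of the BM the log2 ratio was -5.95 for *Procr* and -2.71 for *Tek* with a pseudocount of 1, and -9.25 and -5.82 with 0.1. All 6 reference genes, *Actb* and *B2m* among them, were at an FPKM of at least 1 in all 4 libraries. Their lowest value was 23.3, for *Tbp* in FL GFP+ cells, so they cannot show whether a gene at the BM level of *Tek* was missed. *Esam* (chr9:37528089-37538319) had 183, 151, 20.9 and 51.1, with both FL values above both BM values, and GFP+ cells 1.21-fold higher in the FL and 2.44-fold lower in the BM. *Cd34* (chr1:194938821-194961292) had 221, 226, 48.4 and 182. It was the highest of the 10 genes in every library but BM GFP+, where 4 genes were above it, and only that library stood apart from the others by more than 1.5-fold.

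*Cd27* and *Cd9* varied least between the fractions of the BM. *Cd27* (chr6:125232620-125237136) had an FPKM of 42.0, 83.1, 57.9 and 69.2, and its highest and lowest values differed by 1.98-fold, the smallest span of the 10 genes. *Mir8113*, a microRNA gene, had identical values in all 4 libraries, so the value cannot be assigned to 1 of these symbols. *Cd9* (chr6:125460266-125494760) had 59.7, 73.2, 182 and 173. Both BM values lay above both FL values, while the fractions differed by 1.23-fold in the FL and 1.05-fold in the BM. The megakaryocyte list, whose cells carry CD9, summed to 61.9, 75.0, 396 and 466, and its part in the *Cd9* values was not tested.

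**Figure D2:**
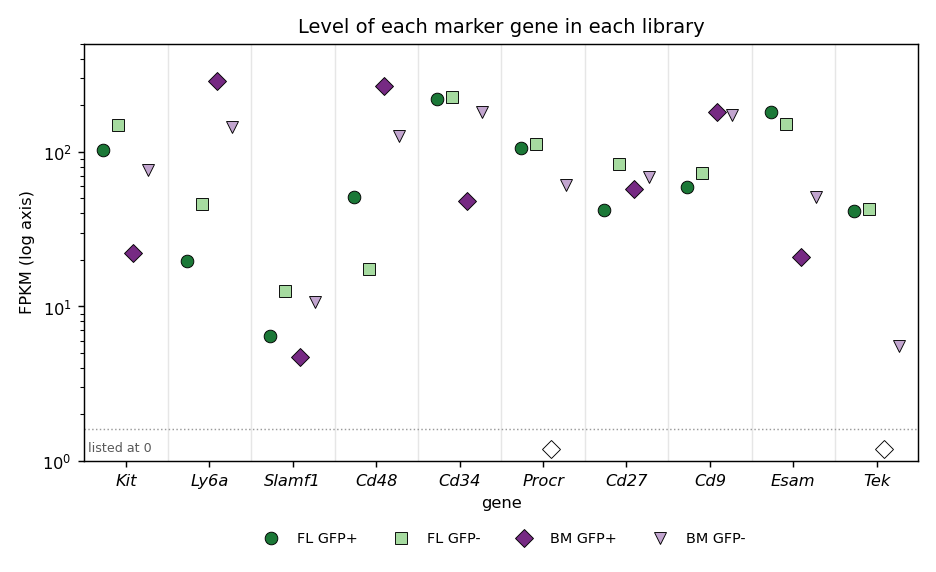
FPKM (log axis) of the 10 genes in the 4 libraries, 1 point per library, with open points below the dotted line for values listed at 0. In BM GFP+ cells *Ly6a* (286) and *Cd48* (267) are the highest of the 10 and *Procr* and *Tek* are at 0, whereas *Cd34* (221 and 226) and *Esam* (183 and 151) lead in both FL libraries.

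The order of levels within a library changed between the tissues. In FL GFP+ cells it ran from *Cd34* and *Esam* through *Procr*, *Kit*, *Cd9*, *Cd48*, *Cd27*, *Tek* and *Ly6a* to *Slamf1*, and in FL GFP- cells the leading 2 and the last were the same genes. *Cd34*, *Cd9* and *Ly6a* led in BM GFP- cells, and *Ly6a*, *Cd48* and *Cd9* in BM GFP+ cells. The FPKM of *Ly6a* was 0.192, 0.308, 12.9 and 1.90 times that of *Kit*. That of *Esam* was 3.06, 2.07, 0.115 and 0.296 times that of *Cd9*. *Cd34* kept a narrower ratio to *Kit*, from 1.5 to 2.38 over the 4 libraries. The 10 genes together summed to between 833 and 916 FPKM in each library, or 0.0888% of the FPKM total in BM GFP+ cells and 0.123% to 0.169% in the other 3.

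The comparison of GFP+ with GFP- cells asks how the BMP-activated fraction differs from the remainder of the same gate. In the FL, *Cd48* was more than 2-fold higher and *Ly6a* more than 2-fold lower in GFP+ cells, 2 of the 10 genes, where 44.7% of the 12134 genes that reached an FPKM of 1 in either sample were past 2-fold (17.9% higher and 26.8% lower). Weakly expressed genes make up much of that background: among the 7552 genes that reached 10, as all of the 10 markers did, it was 29.8% (17.1% higher and 12.6% lower). *Slamf1* and *Cd27* lay just under it, at 1.94-fold and 1.98-fold lower, and with libraries rescaled to equal FPKM totals or upper quartiles both passed, so that 3 genes were lower and 1 higher. The median log2 ratio of (FPKM + 1), a scale that understates changes of low values, was -0.19 over the 10 genes and 0.05 over all genes compared.

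In the BM, 7 of the 10 genes were past 2-fold, where 40.7% of 12385 genes were. *Kit*, *Slamf1*, *Cd34*, *Procr*, *Esam* and *Tek* were lower in GFP+ cells, 6 genes against a background of 19.6% lower, and *Cd48* was higher, against 21.1% higher. Among the 7508 genes that reached an FPKM of 10, as all the markers but *Tek* did here, 29.3% were past 2-fold (17.9% higher and 11.3% lower). *Cd34*, *Procr*, *Esam* and *Tek* are the markers shared with endothelium, and the sizes ran from 2.26-fold for *Slamf1* and 2.44-fold for *Esam* through 3.46-fold for *Kit* to 3.76-fold for *Cd34*, besides the pair listed at 0. The same 6 were lower under both rescalings, whereas *Cd48* fell under 2-fold, with a log2 ratio of 0.62 for equal totals and 0.97 for equal upper quartiles in place of 1.07. The median log2 ratio was -1.14 over the 10 genes and 0.12 over all genes. In the same 2 libraries the summed FPKM of the stem cell regulators was 309.5 in GFP+ and 707 in GFP- cells and that of the neutrophil list 64056 and 17786, and the part of these in the ratios was not tested. Equal totals moved the median of all genes by -0.24 for the FL comparison and -0.41 for that of the BM. Under that scaling 30.0% of genes were lower and 13.2% higher in FL GFP+ cells, and 27.4% lower and 13.5% higher in BM GFP+ cells.

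**Figure D3:**
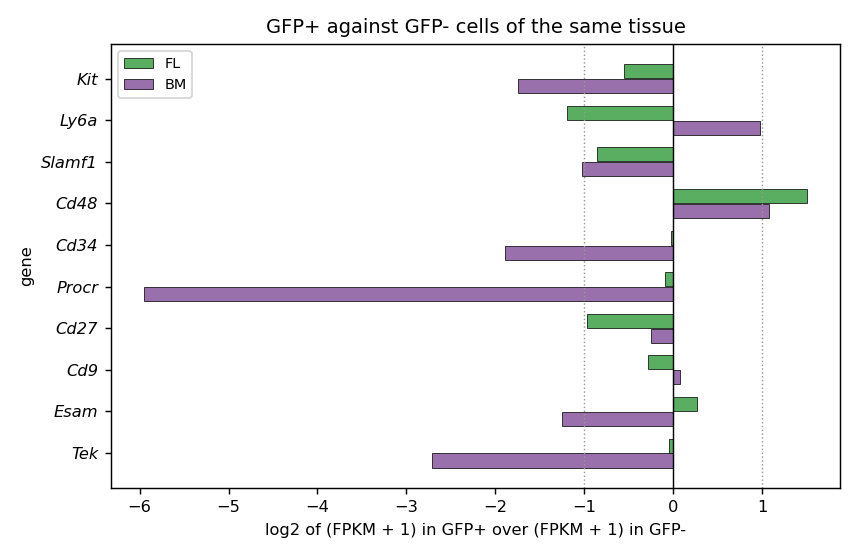
Log2 ratio of (FPKM + 1) in GFP+ over GFP- cells for the 10 genes in the FL and the BM, 1 library per fraction, with dotted lines at 2-fold. In the BM the bars of *Procr* (-5.95) and *Tek* (-2.71), both against a value listed at 0, reach furthest left, and *Cd48* alone is past 2-fold to the right in both tissues.

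*Cd48* was the 1 gene of the 10 that met the study's rule of over 2-fold higher in GFP+ cells in both tissues, which 3.45% of 10910 genes met, and none met the reverse rule, which 6.48% met. None was past 2-fold in opposite directions in the 2 tissues, as were 3.75% (higher in the FL) and 5.79% (lower in the FL) of genes. The repeat of the contrast across tissues allows a fit with limma to log2(FPKM + 1) with tissue as a block, which leaves 1 residual degree of freedom per gene. Of 11707 genes tested, 13 (0.111%) had an adjusted p under 0.05 for GFP, and none of the 10 was among them. For *Cd48* the log2 change over both tissues was 1.29 (SE 0.37, adjusted p = 0.73, unadjusted p = 0.0075), for *Kit* it was -1.15 (SE 0.42, adjusted p = 0.78, unadjusted p = 0.024), and for *Procr* -3.02 (SE 1.12, adjusted p = 0.78, unadjusted p = 0.026). The direction was the same in both tissues for each of these 3. For *Procr*, however, the FL fractions differed by only 1.07-fold. Its change over both tissues thus rests on the BM GFP+ value listed at 0 and is set by the pseudocount. At an unadjusted p under 0.05 there were 732 genes (6.25%), these 3 of the 10 included. With so few samples a missed threshold does not show that the fractions were alike.

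The comparison of FL with BM sets fetal against adult LSK-SLAM libraries, which also differ in preparation and in markers of mature cells, as given above. A change of the HSCs themselves cannot be told apart from these. Between GFP+ cells, 8 of the 10 genes were past 2-fold, where 58.7% of 12120 genes were. *Kit*, *Cd34*, *Procr*, *Esam* and *Tek* were higher in the FL (5 genes, background 25.1%) and *Ly6a*, *Cd48* and *Cd9* higher in the BM (3 genes, background 33.6%). Among the 8118 genes that reached an FPKM of 10, which leaves out *Slamf1* here, 50.7% were past 2-fold (23.3% higher and 27.4% lower in the FL). *Ly6a* differed most among genes with a value above 0 in both, 14.6-fold, followed by *Esam* at 8.71-fold, *Cd48* at 5.19-fold, *Kit* at 4.62-fold and *Cd34* at 4.57-fold. Between GFP- cells, where the neutrophil, erythroid, B cell and T cell sums were nearer to each other, 5 of the 10 were past 2-fold, against 37.9% of 12703 genes. *Esam* and *Tek* were higher in the FL by 2.96-fold and 7.76-fold (background 19.3%), and *Ly6a*, *Cd48* and *Cd9* were higher in the BM by 3.14-fold, 7.26-fold and 2.36-fold (background 18.6%). Among the 7417 genes that reached an FPKM of 10 the background was 26.3% (11.4% and 14.8%). *Kit* at 1.96-fold and *Procr* at 1.87-fold higher in FL GFP- cells lay just under the threshold, and *Cd34* at 1.24-fold, *Cd27* at 1.2-fold and *Slamf1* at 1.17-fold were further below it. *Kit* and *Procr* passed it with equal FPKM totals and with equal upper quartiles. Equal FPKM totals, which moved the median of all genes by 0.57 in GFP+ and 0.40 in GFP- cells towards the FL, took *Cd9* under 2-fold in both fractions, brought *Slamf1* past it towards the FL in GFP+ cells, and gave 37.4% of genes higher and 26.1% lower in FL GFP+ cells and 29.0% and 13.4% in FL GFP- cells.

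**Figure D4:**
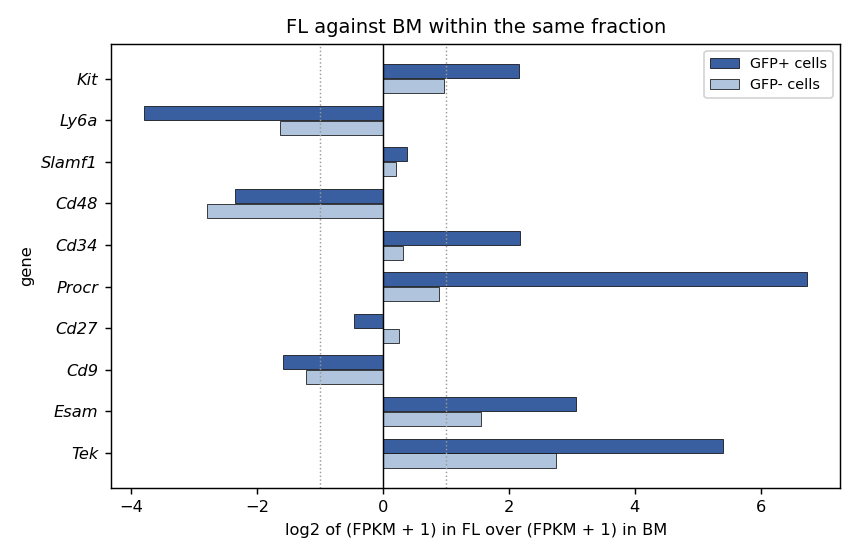
Log2 ratio of (FPKM + 1) in FL over BM for the 10 genes in GFP+ and in GFP- cells, 1 library per group, with dotted lines at 2-fold. *Esam* and *Tek* lie past 2-fold towards the FL and *Ly6a*, *Cd48* and *Cd9* past 2-fold towards the BM in both fractions, while *Cd34* (2.17 and 0.31) and *Procr* (6.74 against a value listed at 0, and 0.89) are past it in GFP+ cells only by this threshold, without a test of the difference.

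The same 5 genes were past 2-fold in both fractions, *Esam* and *Tek* towards the FL, as were 7.7% of 11214 genes, and *Ly6a*, *Cd48* and *Cd9* towards the BM, as were 11.9%. None was past 2-fold in opposite directions in the 2 fractions, as were 1.78% and 3.25% of genes. In the limma fit with the GFP fraction as a block, 288 of 11707 genes (2.46%) had an adjusted p under 0.05 for tissue, 34 higher in the FL and 254 higher in the BM, and 2014 (17.2%) had an unadjusted p under 0.05. The fractions of a tissue stood in as its repeats in this test, without biological replicates. Of the 10 genes, *Cd48* was higher in the BM by this test (log2 change FL over BM -2.57, SE 0.37, adjusted p = 0.0092), as was *Ly6a* (-2.71, SE 0.51, adjusted p = 0.032), and *Esam* was higher in the FL (2.31, SE 0.45, adjusted p = 0.034). Those not past it included *Tek* (4.08, SE 0.92, adjusted p = 0.063), *Cd9* (-1.41, SE 0.34, adjusted p = 0.076), *Kit* (1.56, SE 0.42, adjusted p = 0.11) and *Procr* (3.81, SE 1.12, adjusted p = 0.13). *Cd34* had a change of 1.24 (adjusted p = 0.20), *Slamf1* of 0.30 (adjusted p = 0.90) and *Cd27* of -0.097 (adjusted p = 0.93), and these last 2 alone of the 10 had an unadjusted p above 0.05. Without the BM GFP+ library, 2 FL samples stand against 1 BM sample and no block, a choice made after the data were seen. The log2 changes were then -2.04 for *Cd48*, -2.23 for *Ly6a* and 1.68 for *Esam*. With 1 BM sample that fit cannot decide whether these genes differ, so its effect sizes alone are given. Over the limma alternatives that kept all 4 libraries the adjusted p for *Cd48* ranged from 0.0016 to 0.21. It ranged from 0.0056 to 0.28 for *Ly6a* and from 0.0080 to 0.29 for *Esam*.

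The relatives of the sorting markers were compared in the same way, each list without the 10 genes. Of 7 other SLAM family genes, 4 were over 2-fold higher in BM GFP+ than in BM GFP- cells and none lower, against the 21.1% and 19.6% of all genes, and 5 of 6 compared were over 2-fold higher in the BM than the FL among GFP- cells, as were 18.6% of all genes. *Ly9*, which encodes CD229, had an FPKM of 10.6, 5.63, 67.5 and 27.6, and *Cd84* had 23.5, 19, 29.4 and 14.9. *Slamf6* had 0, 0.732, 35.6 and 11.4. Of 8 other Ly6 genes, the 6 with enough FPKM to compare were all over 2-fold higher in the BM in both fractions, as were 11.9% of all genes. Besides *Ly6c2* above, *Ly6e* had 117, 99.5, 838 and 403, whereas *Ly6d*, a marker of B cell commitment, had 0, 0, 1016 and 210.1. The level of *Ly6e* exceeded that of *Ly6a* in every library, by 2.15-fold to 5.94-fold. Of 7 other tetraspanins, 4 were over 2-fold higher in BM GFP+ than BM GFP- cells and none lower, with the same background as for the SLAM family, *Cd37*, a leukocyte tetraspanin, with 98.4, 42.1, 693 and 179.6 among them. *Cd63* had 173, 195, 456 and 439, and like *Cd9* lay within 1.5-fold between the fractions of each tissue and over 2-fold higher in the BM. *Cd81* ran the other way, with 444, 365, 203 and 290.5.

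Of 19 ligands and partners of the markers, 15 had enough FPKM to compare in the BM, where 5 were over 2-fold higher and 6 over 2-fold lower in GFP+ cells, against 21.1% and 19.6% of all genes. *Angpt1*, a ligand of Tie2, was expressed in the sorted cells themselves, with an FPKM of 74.2, 68.5, 22.5 and 60.5. *Tie1*, the partner receptor of Tie2, had 85.7, 81.3, 0.037 and 29.2, near 0 in the library where *Tek* was at 0. *Kitl*, the ligand of *Kit*, was at 0 in 3 libraries and at 0.098 in BM GFP- cells, and *Cd70*, the ligand of CD27, was listed at 0 in all 4 (both named here for these zeros). *Siva1*, which binds the tail of CD27, varied little, with 242, 242, 186 and 214.

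Of 27 other surface genes used on stem and progenitor cells, 25 were compared between the BM fractions, and 8 were over 2-fold higher and 6 lower in GFP+ cells, against 21.1% and 19.6% of all genes. *Gpr56*, an adhesion receptor of HSCs, had an FPKM of 750.5, 657, 128 and 297. As in *Procr* and *Tek*, its FL values were the higher pair and GFP+ cells of the BM the lowest. *Cd24a*, which rises in B cell and erythroid precursors, had 257, 261, 761.8 and 389. Of the 12 stem cell regulators, most of which encode transcription factors, 9 were over 2-fold lower in GFP+ cells of the BM and none higher, against the same background. *Lmo2* had 263, 238, 123 and 412, *Gata2* 138, 87.6, 25 and 86.4, and *Meis1* 137, 94.3, 21.5 and 67.0. *Fli1*, with 102, 95.4, 86.6 and 64.1, was not among them. In the FL, 3 of these 12 were over 2-fold higher and 1 lower in GFP+ cells, against 17.9% and 26.8% of all genes. Of 10 endothelial genes, 8 were compared between the BM fractions, and 3 were over 2-fold higher and 4 lower in GFP+ cells, again against 21.1% and 19.6%. *Egfl7* had 219, 251, 29.8 and 81.6 and *Eng*, which HSCs express as well, 178, 145, 25.7 and 57.8.

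The genes whose profile over the 4 libraries came closest were sought for the 8 markers above 0 in every library (not *Procr* and *Tek*), by the root mean square difference of centred log2(FPKM + 1) values, among genes of like mean level. Closest to *Kit* was *Ddah2* (0.11, among 2272 candidates), with an FPKM of 77.4, 93.3, 16.3 and 52.7, followed by *Gcnt2* (0.21). *Mfng*, a Notch-modifying glycosyltransferase, came closest to *Cd34* (0.16 among 1191), with 147, 183, 42.1 and 126, followed by *Hn1l* (0.28). For *Esam* it was *Jak3* together with *Insl3*, which share identical values (0.14 among 2228). Closest to *Cd48* were *B4galnt1* (0.20 among 2208), with 33.9, 12.2, 252 and 87.9, and *Fcgr3*, the Fc receptor CD16 of myeloid cells (0.25), with 20.1, 8.25, 161 and 78.7. *Ly6a* had no close match, its nearest being *Ostf1* (0.38) and *Nfkbia* (0.38) among 2136. By contrast 71 genes lay within 0.25 of *Slamf1* and 84 within 0.25 of *Cd27*, led by *Tmx3* (0.038) and *Phf20* (0.046) for the former and, after *Mir8113*, *Myg1* (0.076) for the latter. *Med21* (0.064) and *Chmp2a* (0.095) were closest to *Cd9*. A profile of 4 values is shared by many genes, and the likeness is a description only.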

How the data were processed

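LSK-SLAM cells were sorted by flow cytometry into GFP+ and GFP- fractions, and RNA was extracted with the mirVana kit, prepared by the SMARTer protocol and sequenced on a HiSeq2000. The authors computed the deposited FPKM with Bowtie, TopHat and Cufflinks (2.2.1), corrected for fragment bias and multi-mapped reads with Cuffquant, and scaled all 4 samples by geometric normalization in Cuffnorm. The paper's methods name the NCBI37/mm9 build and the submitters' processing notes mm10. The files hold symbols without coordinates, so positions here are RefSeq's for GRCm38.p6, which is mm10. Geometric scaling assumes that most genes do not differ, and multi-read correction divides reads between relatives such as the Ly6 genes.

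Groups followed the GEO titles. Genes were compared between 2 samples where either had an FPKM of at least 1, with a threshold of 2-fold on the FPKM as deposited, after the study's rule. Log2 ratios used a pseudocount of 1. limma 3.58.1 in R 4.3.3 (lmFit, eBayes with trend, Benjamini-Hochberg adjustment over all genes tested, 2-sided) was fitted to genes that reached an FPKM of 1 in 2 or more samples. Its p-values rest on how far these 4 samples depart from the additive fit, with variance shared in part between genes. They do not measure a spread between replicates, of which there were none. The code was tested on simulated data. Python 3.11.15, numpy 2.4.6, pandas 2.3.3 and matplotlib 3.10.9 served for the rest. All 10 markers are named. Of other lists, 2 to 4 genes with the highest mean FPKM are named, save those said to be chosen otherwise, and for likeness of profile the 2 nearest genes. The markers and lists were chosen with earlier results of these data known. Alternatives were other thresholds, pseudocounts, filters and scalings, limma without trend or block, and leaving out identical symbols or short RNA genes. Surface protein and transplantation results were not analysed here. Some listed genes are not reported here.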

Additional observations from a re-analysis of the deposited data

Results flagged for a closer look

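In 3 of the 10 genes the GFP+ and GFP- libraries differed in opposite directions in the FL and the BM. None of these differences could be tested, with 1 library per group. On the log2(FPKM + 1) scale, *Ly6a* in GFP+ relative to GFP- cells stood at -1.19 for the FL and 0.97 for the BM, a difference of 2.17, and *Esam* had 0.27 and -1.25, a difference of -1.51. *Cd9* had -0.29 and 0.07, a difference of 0.36, and its BM ratio was -0.38 with equal FPKM totals and -0.03 with equal upper quartiles, so that the opposition was lost under both rescalings. The FL to BM ratio of *Cd27* was -0.46 in GFP+ and 0.26 in GFP- cells, a difference of -0.72, and the first became 0.16 with equal FPKM totals.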

How the results depend on the processing

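Of the 40 log2 ratios of the 10 genes in 4 comparisons, 3 of 120 alternative values changed sign (*Cd9* in the BM under both rescalings and *Cd27* between GFP+ cells with equal totals), all of ratios under 2-fold. In the FL, 2 of the 10 genes were past 2-fold. At 1.5-fold there were 4 (29.1% of all genes higher and 32.5% lower), and at 4-fold 0 (6.98% and 20.1%). With equal totals there were 4 (13.2% and 30.0%), as with equal upper quartiles (13.6% and 29.5%). At 4-fold, 2 remained in the BM (*Procr* and *Tek*), where 8.12% of all genes were higher and 11.8% lower. Between GFP- cells 2 remained at 4-fold (*Tek* and *Cd48*), where 7.79% were higher and 10.3% lower in the FL. The limma count for GFP, 13, became 1 with a pseudocount of 0.1, 4 without the block, 0 without the trend (685 at an unadjusted p under 0.05) and 0 without short RNA genes (754). The count for tissue, 288, became 80 with a pseudocount of 0.1, 189 without the filter, 176 without the block, 485 without short RNA genes and 0 without the trend (1581). *Cd48*, *Ly6a* and *Esam* passed for tissue under 7, 5 and 6 of the 9 alternatives that kept all 4 libraries. *Tek* passed under 3, *Cd9* and *Procr* under 1 each, and none of the 10 genes passed for GFP under any of 9. The cause of these shifts was not tested. No paired analysis was possible because the labels give no replicate numbers that could pair samples by animal; the block in the limma fits is the tissue or the GFP fraction. Leaving any 1 library out of the blocked fit leaves no residual degree of freedom, and the ratio within the other tissue or fraction, given above, is what remains. The fragments counted per gene were not given, so the precision of low values such as those of *Slamf1* and BM *Tek* was not estimated.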
